A study of Caenorhabditis elegans with 2 samples.

Results

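Strong sites in repeat sequence are the peaks of APTF-3 chromatin immunoprecipitation sequencing (ChIP-seq) that combined a high signal with soft-masked, that is repeat-marked, genome sequence. They were chosen from the ranked peak list of both replicates by 2 values, a deposited signal of at least 60 and at least 50% soft-masked bases, and 206 sites qualified. They are 0.206% of all peaks in that list, which holds 1437 peaks with such a signal and 15440 with such a soft-masked share. Since the signal and the soft-masked share chose the sites, both are given as descriptions and nothing is supported with them. The animals were whole young adult Caenorhabditis elegans of strain OP765, collected at 64 h after synchronisation as starved first-stage larvae (L1) after bleaching. They carried wgIs765, an aptf-3::TY1 EGFP 3xFLAG transgene carried together with unc-119(+), in an unc-119 (tm4063) background. Sonicated chromatin of 200 to 800 bp was precipitated through the GFP part of the tag. All samples formed 1 group of 2 biological replicates, with no second condition. The labels list no deletion of aptf-3 itself, and whole animals mix all tissues.

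APTF-3 belongs to the AP-2 transcription factors, which bind as dimers to a palindrome of GCC and GGC half-sites. Worm chromosomes have no single centromere; genes crowd their centres and repeats are richer on their arms. Repeats come as tandem arrays, or satellites, in which a unit is repeated head to tail, and as dispersed copies left by mobile elements. Reads from near-identical copies are hard to place, and the handling of such reads is not stated in the labels or file notes used here.

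The label was checked against the sequence itself, because no table of repeat families was used here. Soft-masking covered 35.7% of the genome, so 50% masked bases alone is a mild demand. A site was called tandem where at least 80% of its bases equalled the base 1 repeat unit further on, and 75 of 206 sites were (36.4%, 95% exact binomial interval 29.8 to 43.4). The same held for 6 of 1231 other strong peaks, which had the same signal of at least 60 but under 50% soft-masked bases (0.487%), and for 519 of all 15440 ranked peaks with at least 50% soft-masked bases (3.36%). At least 10 further genome places matched a site over 80% of its length at 80% identity for 86 sites (41.7%), against 24 other strong peaks (1.95%). The other strong peaks were chosen by a low soft-masked share, and places were not counted for all soft-masked ranked peaks. This contrast therefore cannot be told apart from the rule. At the other end, 64 sites (31.1%) were neither tandem nor matched at 10 or more places over 50% of their length, so for these the sequence did not show repetition by either measure. Of these, 11 belonged by family or motif to one of the kinds of repeat described below, and the remaining 53 are called sites with under 10 places. All intervals of shares cover counting error only, and neighbouring or related sites are not independent.

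Sites were grouped into families by chaining pairs that matched over at least 50% of the shorter site at 80% identity. Sites of 1 family therefore need not all match each other. The grouping gave 18 families of 2 or more sites, 9 of them with 3 or more, and 84 sites with no relative among the 206. The following stretches show what the leading families look like. All are of ce11 (WBcel235), plus strand, and each is the strongest site of its family or kind, apart from the GAA pentamer repeat, where it is the 3rd by signal. In the first 3 the capitals mark 1 repeat unit as measured.

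26-bp satellite, chrX:15810961-15811256: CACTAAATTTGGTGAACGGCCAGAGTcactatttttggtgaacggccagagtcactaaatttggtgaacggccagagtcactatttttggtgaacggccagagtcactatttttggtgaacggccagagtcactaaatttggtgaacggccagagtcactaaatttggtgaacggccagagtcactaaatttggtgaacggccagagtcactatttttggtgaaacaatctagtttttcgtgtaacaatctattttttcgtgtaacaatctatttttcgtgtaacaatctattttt
45-bp satellite, chrIV:10945736-10946031: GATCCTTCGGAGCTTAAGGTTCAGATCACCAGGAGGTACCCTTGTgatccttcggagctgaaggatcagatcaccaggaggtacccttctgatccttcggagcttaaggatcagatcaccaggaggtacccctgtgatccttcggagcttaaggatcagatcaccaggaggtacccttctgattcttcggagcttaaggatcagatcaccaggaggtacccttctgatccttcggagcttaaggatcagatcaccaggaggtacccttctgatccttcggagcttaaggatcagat
25- to 27-bp satellite, chrIII:1299823-1300118, where 1 measured unit of 50 bp spans a pair of short units: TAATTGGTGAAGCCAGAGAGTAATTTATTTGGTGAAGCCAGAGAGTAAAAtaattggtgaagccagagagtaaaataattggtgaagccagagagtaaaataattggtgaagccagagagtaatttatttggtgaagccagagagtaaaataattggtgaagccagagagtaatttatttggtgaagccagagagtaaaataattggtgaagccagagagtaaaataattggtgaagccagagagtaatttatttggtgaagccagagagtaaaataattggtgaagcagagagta

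The next stretch is from the largest family, and its capitals mark every TTCNNGAA, a pair of inverted GAA pentamers pointing away from each other.

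GAA pentamer repeat, chrX:1375112-1375407: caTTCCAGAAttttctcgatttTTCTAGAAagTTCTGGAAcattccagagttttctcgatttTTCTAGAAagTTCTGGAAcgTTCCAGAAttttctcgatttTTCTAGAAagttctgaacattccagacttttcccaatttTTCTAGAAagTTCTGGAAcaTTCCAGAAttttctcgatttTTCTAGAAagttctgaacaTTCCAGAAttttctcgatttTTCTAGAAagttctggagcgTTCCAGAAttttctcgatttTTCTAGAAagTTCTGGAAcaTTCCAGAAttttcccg

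In the last 2, a dispersed family and a site with under 10 matching places, the capitals mark GTTCNANNC on either strand, the core of the B box. The B box is the internal promoter element of tRNA genes and of repeats derived from them.

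Dispersed tRNA-like family, chrIV:2740073-2740368: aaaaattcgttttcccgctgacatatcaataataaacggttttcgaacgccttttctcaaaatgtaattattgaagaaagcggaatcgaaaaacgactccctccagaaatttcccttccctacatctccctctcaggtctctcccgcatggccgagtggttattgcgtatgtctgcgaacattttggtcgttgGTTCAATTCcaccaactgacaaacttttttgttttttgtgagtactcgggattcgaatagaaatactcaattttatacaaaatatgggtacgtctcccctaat
Site with under 10 places, chrII:5353713-5354008: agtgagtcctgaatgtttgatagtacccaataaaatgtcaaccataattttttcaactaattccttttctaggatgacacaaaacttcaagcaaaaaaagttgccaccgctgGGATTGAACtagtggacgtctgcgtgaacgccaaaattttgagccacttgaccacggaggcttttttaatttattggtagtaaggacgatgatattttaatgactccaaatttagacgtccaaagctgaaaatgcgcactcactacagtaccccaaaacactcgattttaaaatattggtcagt

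The strongest peak of the whole ranked list was the 26-bp satellite printed above, on the right arm of X, 6937 bp from the nearest protein-coding gene, Y7A5A.7. Its deposited signal over both replicates was 1525.85 (authors' units), with 1150 in replicate 1 and 613 in replicate 2. A second peak of the same satellite, at chrX:15808044, had a signal of 428, with 277 in replicate 1 and 169 in replicate 2. The remaining 3 sites of this family lay within 1688 bp on chromosome V, from 5283968 to 5285655, with signals of 329, 239 and 143. All 5 had an irreproducible discovery rate (IDR, a measure of how repeatably a peak ranks between replicates) of 0.01 or less, and all 5 were absent from the authors' thresholded list. The genome held 11 stretches like this satellite, 8 with a ranked peak and 2 with a strong one.

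The 45-bp satellite supplied 3 of the 25 strongest sites. At the stretch printed above, chrIV:10945736, the signal was 342, with 193 in replicate 1 and 153 in replicate 2. At chrIV:3366884 it was 222, with 113 and 110 in replicates 1 and 2. At chrIV:10943651 it was 217, with 113 and 111. These 3 were absent from the thresholded list, while another site, chrI:5975049 near avr-14, a glutamate-gated chloride channel gene, was in it with a signal of 67.8. Further repeats of similar unit length but of families of 2 sites each had 214 at chrIV:14779903 (44-bp period), near Y57G11C.8, which was absent from the list, and 166 at chrX:17442608 (45-bp period), near C36E6.8, which was in it.

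The 25- to 27-bp satellite had 17 sites on 6 chromosomes, all of them intergenic. Its highest signals were 297 at chrIII:1299823, near fbxa-28, and 286 at chrII:14337691, near ddl-3. An IDR of 0.01 or less was reached by 14 of the 17, but only 1 was in the thresholded list, chrV:14756615 with a signal of 76.1. Of 41 genome stretches like it, 32 held a ranked peak and 13 a strong one. Replicate 1 was higher at 11 of the 12 sites matched within 100 bp in both replicates, with a median log2 ratio of replicate 1 over replicate 2 of 0.91. The other 5 had no peak of replicate 2 within 100 bp, among them chrIV:2828826, near clec-80, a C-type lectin gene, with 165 in replicate 1. For comparison, replicate 1 was higher at 480 of 1145 other strong peaks, with a median log2 ratio of -0.11. It was higher at 20 of 36 matched sites of the other tandem repeats, with a median of 0.096. These include the 26-bp satellite, with 4 of 5, and the 45-bp satellite, with 5 of 5.

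The largest family joined 49 sites. Of these, 38 held at least 4 TTCNNGAA, a palindrome searched on both strands at once. Arrays of such inverted GAA pentamers make up the heat shock element, the sequence bound by the heat shock factor HSF-1. Among ranked peaks with at least 50% soft-masked bases 223 of 15440 held as many (1.44%), among all ranked peaks 235 (0.236%), and among genome windows of 296 bp 896 of 338755 (0.264%). Since 223 of those 235 peaks are soft-masked to that share, the rule nearly fixed the count in other strong peaks, which was 0 of 1231. The motif and its minimum were chosen after the sequences had been seen, and a match is not shown to be a site of HSF-1 or of APTF-3.

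The median best period of this repeat was 40 bp, and its median GC content was 33.8%. Among the 75 tandem sites of all kinds, 40 bp was also the most frequent best period, with 23 sites. Its strongest site, at chrI:7868978, had a summit in the 5′ UTR of pck-2, which codes for a phosphoenolpyruvate carboxykinase, and 145 in replicate 1 and 178 in replicate 2. At chrX:1375112, near the F-box gene fbxa-190, replicate 1 had 119 and replicate 2 had 157. At chrI:14686627, near ttm-5, they were 135 in replicate 1 and 138 in replicate 2. At chrIV:15059148, near Y41E3.13, the values were 83.7 in replicate 1 and 112 in replicate 2. At chrX:2057846, near Y102A11A.1, replicate 1 had 66.9 and replicate 2 had 103. In these 5 strongest sites replicate 2 was the higher one each time. Further sites lay in introns of cua-1, a copper transporter gene, of tir-1, a gene of the innate immune signalling pathway, of zyg-9, a microtubule-associated protein gene, and of oat-1, an organic anion transporter gene. Replicate 1 was the lower one at most of these sites and higher at 10 of 35 matched in both, with a median log2 ratio of -0.33. With 1 library per replicate, the differences between families in this ratio were not tested.

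The number of TTCNNGAA was set beside the signal over all ranked peaks, as a description, since the signal chose the sites. Peaks with 4 to 9 had a median signal of 18.6, and 8 of 114 reached 60. Those with 10 to 14 had a median of 31.6, and 10 of 53 reached 60. Those with 15 to 24 had a median of 43.0, and 20 of 68 reached 60 (29.4%), against 1.48% of peaks with none. Peaks with none had a median of 21.8, above that of peaks with 4 to 9. Most stretches of this repeat had no strong peak: of 364 in the genome, 204 overlapped a ranked peak and 37 a strong one (10.2%). Peaks here share libraries, base composition and often an array.

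**Figure D1:**
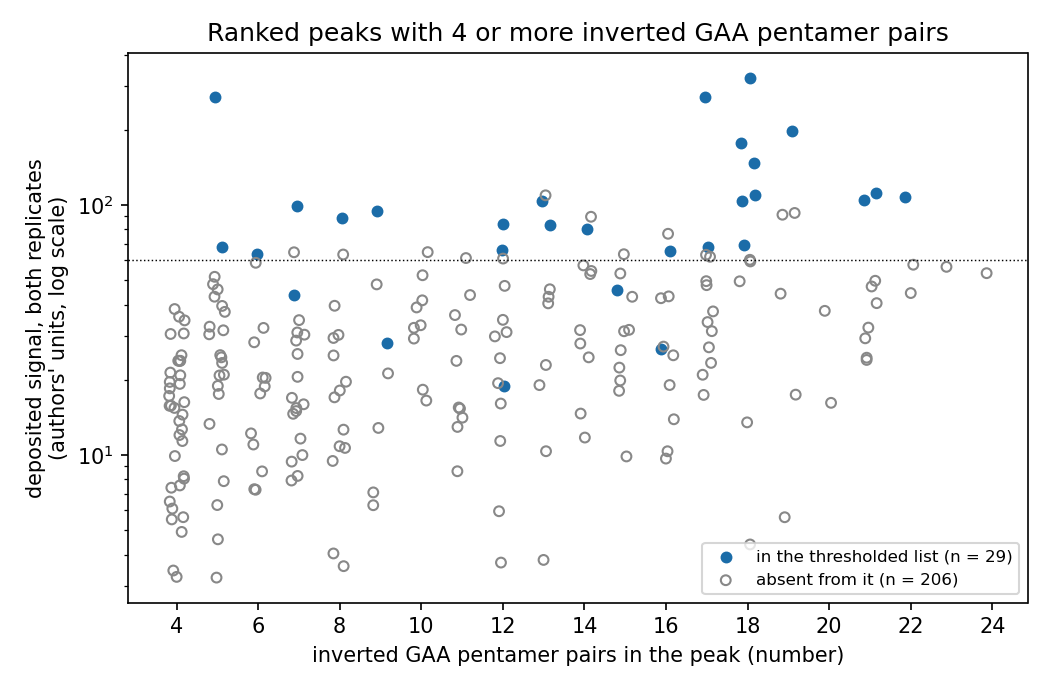
Each point is 1 of the 235 ranked peaks with 4 or more TTCNNGAA, plotted by their number (horizontal axis) and by the deposited signal over both replicates (vertical axis, authors' units, log scale), with the dotted line at the signal of 60. The 29 peaks overlapping the thresholded list are filled, and 20 of 68 peaks with 15 or more lie on or above the line.

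The other 11 sites of that family were mostly a 15-bp repeat with a median GC content of 59.5%. The strongest pair lay at chrII:695117 and chrII:696806, with signals of 120 and 91.5, both in the thresholded list. Of the 11, 7 were in that list. At pck-2 and cua-1 this 15-bp repeat and the GAA pentamer repeat lay beside each other, at chrI:7868287 to 7869384 and at chrIII:13447492 to 13448539, and all 5 sites of the 2 places were in the list.

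Hexamers of the worm telomere, TTAGGC on either strand, occurred 12 or more times in 12 sites, and all 12 lay on chromosome arms. So did all 256 genome stretches like the 6 of these sites that formed 1 family. Signals of the 12 sites ran from 60.7 to 78.0, with a median of 65.3, and 4 of the 12 were in the thresholded list. The highest was at chrI:1974751, with 24.0 in replicate 1 and 55.8 in replicate 2. As a description, since the signal chose the sites, 205 of all ranked peaks held 12 or more, and 12 of these reached a signal of 60 (5.85%). The share was 1.30% of peaks with 1 to 11 and 1.44% of peaks with none. The hexamer and its minimum were chosen after the sequences had been seen.

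Among dispersed repeats, 1 family had 8 sites on 5 chromosomes and was not tandem. Each of its sites had 50 to 61 matching places over 80% of its length. Signals ran from 63.2 to 102, the strongest at chrIV:2740073 in the annotated pseudogene WBGene00023396, with 62.2 in replicate 1 and 43.4 in replicate 2. The B box core occurred in 7 of these 8 sites, and the same 9 letters in 11.9% of all ranked peaks and 10.4% of genome windows. Of the 8, 7 were in the thresholded list. All 8 lay on chromosome arms, as did 69 of 83 genome stretches like this family (83.1%). A second dispersed family had 4 sites on V, with 294 to 544 places over 50% of their length and 0 over 80%. Over 50% of the length the first family had 58 to 74. The second family was strongest at chrV:16744890, near gyg-2, a glycogenin gene, with 38.7 in replicate 1 and 40.2 in replicate 2. Of 83 genome stretches like the first family, 63 held a ranked peak and 12 a strong one (14.5%), 4 of the 12 being strong peaks under 50% soft-masked. Over all repeat sites the core was in 17 of 206 (8.25%, interval 4.88 to 12.9), against 326 of 1231 other strong peaks (26.5%). The interval includes the 11.9% of all ranked peaks and the 10.4% of genome windows. Other strong peaks were chosen by a low soft-masked share, and the core was not counted for all soft-masked ranked peaks. The contrast with them therefore cannot be told apart from the rule.

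Genes for tRNA and other structural RNAs were rarely at repeat sites. Of the sites, 2 of 206 had a summit within 100 bp of a tRNA, snRNA, snoRNA or rRNA gene (0.971%, interval 0.118 to 3.46), against 246 of 1231 (20%, interval 17.8 to 22.3), of which 167 were at tRNA genes. One, chrI:11579582, lay in the tRNA gene WBGene00014332, with 50.4 in replicate 1 and 48.4 in replicate 2. The other, chrI:12285822, lay 38 bp from the snRNA gene C47F8.9, with 62.4 in replicate 1 and 43.1 in replicate 2. This share rests on the rule's masked share: with at least 25% soft-masked bases in place of 50%, 77 of 517 sites were at such genes (14.9%).

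Of the 53 sites with under 10 matching places, 28 lay in the promoter of a protein-coding gene, here 1000 bp upstream to 200 bp downstream of its start, against 16 of the other 153. The strongest, at chrII:5353713, had 75.4 in replicate 1 and 97.8 in replicate 2 and holds the B box core once. The next was at eel-1, a ubiquitin ligase gene, at chrIV:3050442, with 78.2 in replicate 1 and 84.7 in replicate 2. Promoters of cnk-1, a Ras signalling scaffold gene, of pro-1 and of the ribosomal protein genes rpl-15 and rps-19 held further ones. Over all repeat sites 139 of 206 summits were intergenic (67.5%), 43 were in introns of protein-coding genes and 2 in coding exons. Among the 1231 other strong peaks 354 were intergenic (28.8%) and 351 in coding exons (28.5%). Promoters of protein-coding genes held 44 of the 206 repeat sites (21.4%) and, by a separate count, 351 of the 1231 other strong peaks (28.5%). The other strong peaks were chosen by a low soft-masked share, and neither classes nor promoters were counted for all soft-masked ranked peaks. These differences from other strong peaks therefore cannot be told apart from the rule.

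The AP-2 consensus GCCNNNGGC, read on both strands at once, was in 6 of 206 repeat sites (2.91%, interval 1.08 to 6.23). It was in 57 of 1231 other strong peaks (4.63%, interval 3.53 to 5.96), in 2.14% of all ranked peaks and in 1.35% of genome windows of 296 bp. The interval of the repeat sites includes each of these shares.

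The thresholded list held 93 of the 206 repeat sites, all with identical coordinates, and not the other 113 (45.1%, interval 38.2 to 52.2). The same list overlapped 51.0% of other strong peaks and 0.861% of all ranked peaks. An IDR of 0.01 or less was reached by 136 repeat sites (66.0%, interval 59.1 to 72.5), beside 52.4% of other strong peaks and 0.850% of all ranked peaks. Both values come from the same signals as the rule, so these shares only describe. The list of replicate 1 alone held 30 repeat sites (14.6%), beside 11.3% of other strong peaks and 0.190% of all ranked peaks. That of replicate 2 alone also held 30, beside 15.1% and 0.255%.

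Every listed site had an IDR of 0.01 or less, but 43 sites with such an IDR were not listed. They were 43 of the 63 ranked peaks of which this was true. Put as shares, 31.6% of passing repeat sites were absent (interval 23.9 to 40.1), against 2.64% of passing other strong peaks (17 of 645, interval 1.54 to 4.19). As a description, since the signal chose the sites, the 43 had a median signal of 108, against 83.1 in the 93 listed sites, and of the 10 strongest repeat sites 7 were absent. The authors' notes name 1 more source file for the thresholded lists than for the ranked lists without saying what it holds, and its part in these absences was not tested.

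Absence went with the kind of repeat. Of passing sites, 13 of 14 were absent in the 25- to 27-bp satellite and 23 of 30 in other tandem repeats. Against that, 5 of 29 were absent in the GAA pentamer repeat, 2 of 16 in dispersed repeats and 0 of 36 among sites with under 10 places (upper bound 9.74%). It also went with place. Of the 43, 32 had another repeat site within 10 kb (74.4%), against 25 of the 93 listed sites (26.9%). A peak of the thresholded list lay within 10 kb of 6 of the 43, and 1 of the 93 listed sites lay within 10 kb of an absent passing one. On chromosome V from 7913230 to 7923744, the GAA pentamer repeat had 6 sites near srsx-7, 4 of them passing and 0 listed, while 24 of its 32 sites elsewhere were listed.

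**Figure D2:**
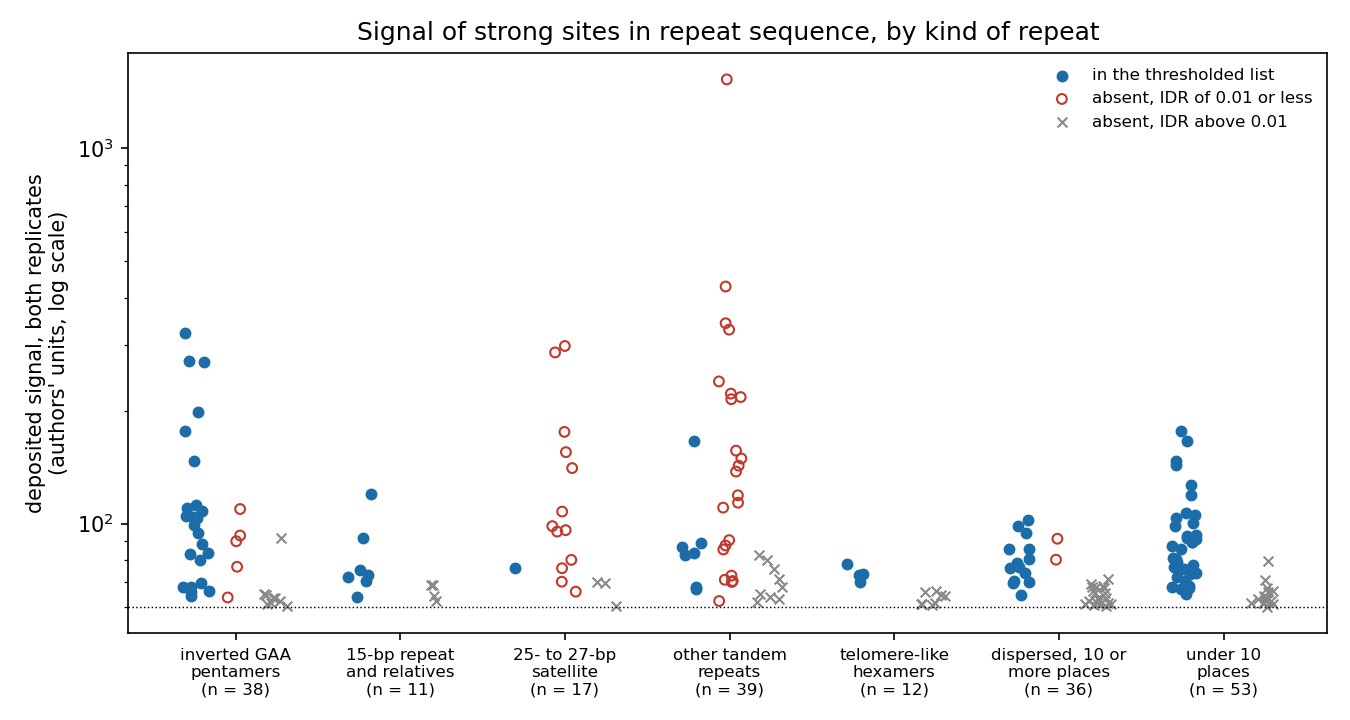
Each point is 1 of the 206 repeat sites, by kind of repeat (horizontal axis) and deposited signal over both replicates (vertical axis, authors' units, log scale, dotted line at 60). Filled circles are in the thresholded list, open circles are absent with an IDR of 0.01 or less, and crosses are absent with a higher IDR; the open circles lie mostly in the 25- to 27-bp satellite (13) and other tandem repeats (23).

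Of 206 sites, 74 had another within 10 kb (35.9%), forming 29 clusters, of which 22 were of a single family. Neighbours were not counted in this way for other strong peaks or for all soft-masked ranked peaks. The share therefore has no background beside it. Clusters of 3 or more numbered 8. The largest were the 6 GAA pentamer sites on V and 6 sites of 1 other family on I, from 10946558 to 10951951. The 6 on I had signals of 67.7 to 149, and none was listed. Their best periods ran from 21 to 74 bp, with a median of 32 bp and a median tandem share of 73.8%. The strongest of these, chrI:10947409 near Y95D11A.1, had 90.4 in replicate 1 and no replicate 2 peak within 100 bp. On II, from 8287617 to 8292811, 4 sites of a 79-bp repeat near cct-4, a chaperonin subunit gene, and nlp-55, a neuropeptide-like gene, had signals of 64.8 to 156, also none listed. The strongest, chrII:8289358, had 107 in replicate 1 and 62.7 in replicate 2. In 15 of 29 clusters no site was listed, in 9 all were, and 5 were mixed.

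Along the chromosomes, 166 of 206 repeat sites lay on arms, taken as the parts outside the middle 1 of 3 equal lengths (80.6%, interval 74.5 to 85.8), against 66.9% of other strong peaks and 68.9% of all ranked peaks. The better yardstick is repeat sequence itself: 73.7% of soft-masked bases and 89.8% of ranked peaks with at least 50% soft-masked bases lay on arms. Against those ranked peaks, the strong ones were more often central, at 19.4% beside 10.2%. Tandem sites were less often on arms, at 50 of 75, than non-tandem sites, at 116 of 131. Those ranked peaks were not split in this way. In the GAA pentamer repeat 22 of 38 were on arms (57.9%), while 315 of 364 of its genome stretches were (86.5%). The 38 sites fell in 23 groups of sites within 10 kb, 6 of them in 1 cluster on V, while overlapping stretches were merged. These shares thus count different units, and their difference was not tested. Chromosome III held 25 sites (12.1%, interval 8.01 to 17.4), against 20.8% of ranked peaks with at least 50% soft-masked bases. For the other 5 chromosomes the interval included the share of those peaks, as for I, with 52 sites (25.2%, interval 19.5 to 31.7) against 20.5%.

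**Figure D3:**
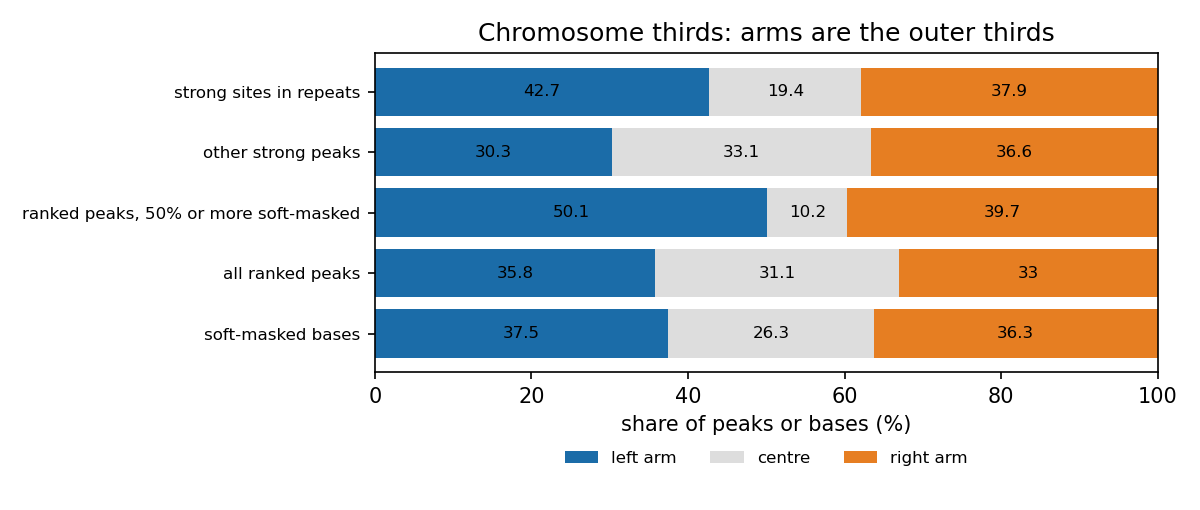
Bars give the share (%, horizontal axis) of each set in the left arm, centre and right arm, each 1 of 3 equal parts of a chromosome. The strong sites in repeats have 19.4% in the centre, between the 10.2% of all ranked peaks with 50% or more soft-masked bases and the 33.1% of other strong peaks.

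In the replicates taken singly, 200 repeat sites had a peak summit of replicate 1 within 100 bp and 195 one of replicate 2. Both were there for 190, or 92.2%, beside 1145 of 1231 other strong peaks, or 93.0%. As a description over these 190 sites, which share 2 libraries and were chosen on the joint signal, the log10 signals of the replicates had a Pearson correlation of 0.58 and the signals a Spearman correlation of 0.31. Over the 1145 other strong peaks the values were 0.19 and 0.02. These values are those of the nearest summit, not of the whole site. At chrX:2058048, a listed GAA pentamer site overlapping a stronger one, the nearest summit had 4.58 in replicate 1 and 84.1 in replicate 2. The overlapping site, chrX:2057846, had the far higher replicate 1 value given above. The 4.58 therefore need not be the replicate 1 signal over the site.

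**Figure D4:**
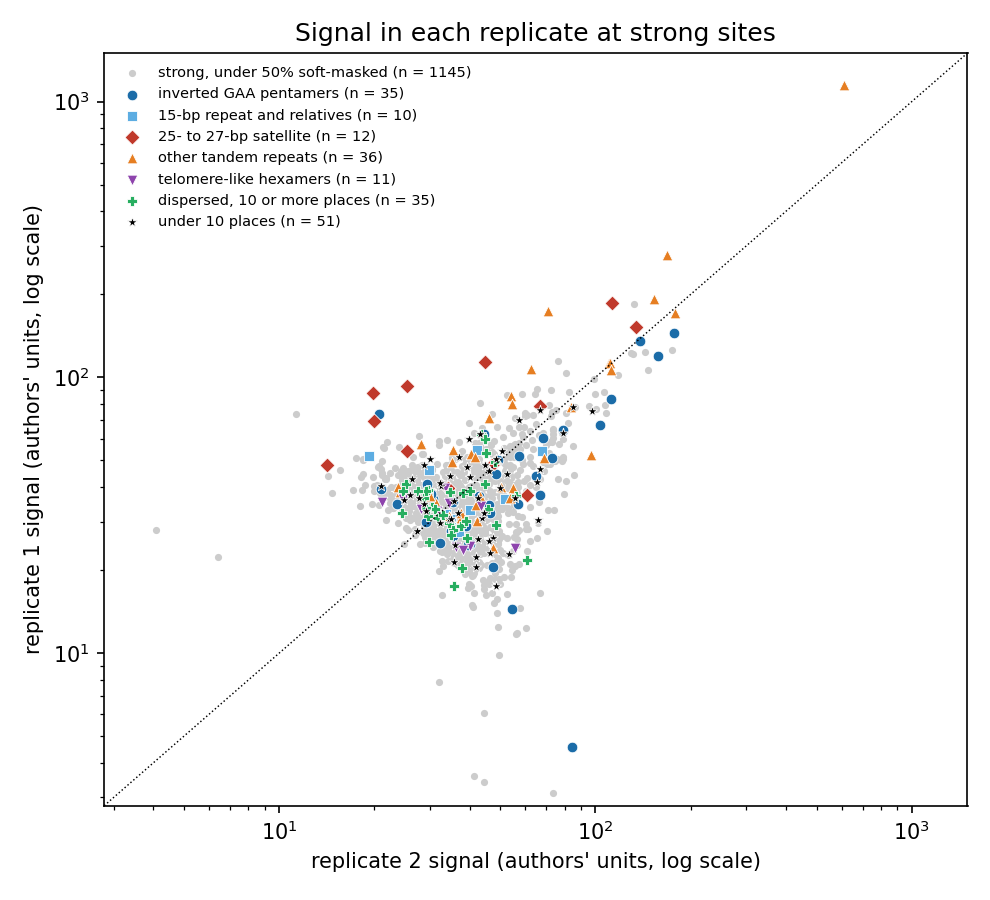
Each point is a strong site matched within 100 bp in both replicates, by its signal in replicate 2 (horizontal axis) and replicate 1 (vertical axis), both in the authors' units on log scales, with the line of equal signal dotted. The 190 repeat sites are coloured by kind and the 1145 other strong peaks are grey; 11 of the 12 sites of the 25- to 27-bp satellite lie above the line and 25 of 35 GAA pentamer sites below it.

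At the thresholds, the 3 repeat sites just inside the signal of 60 had 60.04, 60.2 and 60.4, and the 3 soft-masked peaks just outside it had 59.8, 59.8 and 59.7. Just inside the masked share were 3 sites at 50%, and just outside it 3 strong peaks at 49.7%, 49.0% and 48.6%.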

How the data were processed

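Young adult worms at 64 h were assayed by ChIP-seq in 2 biological replicates of 1 group, and 8 deposited peak lists were at hand. The signal of each peak is the authors' deposited value, on a scale that the labels and file headers do not define. The ranked lists also hold the authors' −log10 of the global IDR, as deposited. Neither labels nor headers name the aligner or peak caller, and read depth is unknown, so no interval needing it is given. The ranked lists of the series hold 16 columns for single inputs that no label ties to a replicate; they were not used.

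Soft-masked bases were read from the RefSeq genome (ce11, the build of the files) and genes from Ensembl release 115. The soft-masking of other copies of this build may differ, which would change the membership. Tandem share was the best of periods from 1 to 100 bp. Genome places came from blastn (BLAST 2.17.0, word size 16, e-value of 0.001 or less), families from word size 11. Replicate signal is that of the nearest summit within 100 bp. Repeat-kind names, the TTCNNGAA, GTTCNANNC and TTAGGC searches and their minimums were chosen after the sequences were seen. Kinds were assigned in order: the largest family, split by 4 or more TTCNNGAA; the second family; tandem, or in a family of median tandem share of at least 70%; 12 or more TTAGGC; 10 or more places over 50% of the site; the rest. Shares have exact binomial (Clopper-Pearson) 95% intervals. No test was run, since the rule used the signal and there is 1 group. Named sites were the 20 strongest after merging overlaps, the strongest of each family of 3 or more, those at structural RNA genes and 3 on each side of each threshold; other named genes were chosen after values were seen. The sites and lists were chosen with earlier results of these data known. Tandem, family and place functions were tested on simulated sequence. Python 3.11.15, numpy 2.4.6, pandas 2.3.3 and scipy 1.17.1 were used.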

Additional observations from a re-analysis of the deposited data

How the results depend on the processing

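No paired analysis was possible because all samples form 1 group and no result compares groups. Of 85 alternative values, 44 stayed within the interval of the reported share (or 1.5 times the reported count) and 41 moved; merging overlapping sites and the other series ranked list moved none, nor did a minimum of 2 or 6 TTCNNGAA, chosen after the data were seen. A signal of at least 40 gave 1191 sites, with 8.06% listed, 88.7% on arms, 47.2% clustered, 11.7% tandem, 22.6% with 10 or more places, 91.4% matched in replicate 1 and 88.5% in replicate 2. A signal of at least 80 gave 87 sites, with 59.8% listed, 46.0% clustered, 50.6% tandem and 49.4% with 10 or more places. A soft-masked share of at least 25% gave 517 sites, with 14.9% tandem, 17.6% with 10 or more places and 14.9% at structural RNA genes, so the low share at such genes depends on the 50% threshold. At least 75% gave 121 sites, with 37.2% listed, 73.6% on arms, 51.2% clustered, 60.3% tandem, 62.8% with 10 or more places and 0% at structural RNA genes. Single settings gave 62.1% on arms (arms of 25% of the chromosome at each end), 29.1% clustered (2 kb) and 51.0% (50 kb), 21.4% tandem (share of 90%), and 28.2% (90% identity) and 60.2% (50% of the length) with 10 or more places. The cause of these moves was not tested.

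Leaving out 1 replicate, by applying the rule to the other's own list, gave 41 sites either way. Without replicate 1 or replicate 2, 41.5% to 51.2% were listed, 73.2% to 75.6% were on arms, 31.7% to 39.0% were clustered, 63.4% to 68.3% were tandem, 56.1% had 10 or more places, 0% to 2.44% were at structural RNA genes, 87.8% to 100% were matched in replicate 1 and 92.7% to 100% in replicate 2. By construction, every site of a replicate's own list is matched in that replicate.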
